A study of Mus musculus with 6 samples.

Results

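Goblet cells are the mucus-secreting cells of the colonic epithelium, and 9 genes of their fate and secretory programme were examined at the level of promoter chromatin in mouse colonic organoids. The genes were taken as a given list: the transcription factors Atoh1, Spdef and Gfi1, the secretory transcription factor Creb3l1, the endoplasmic reticulum protein Agr2, and the secreted products Tff3, Fcgbp, Zg16 and Clca1. All 9 were found by symbol in the GENCODE M21 annotation of GRCm38, among 21924 protein-coding genes and 55341 gene symbols of any type. A promoter was taken as 1000 bp on each side of every annotated transcript start of a gene, merged where these overlapped.

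Organoids are self-organising epithelial cultures grown in a gel from crypt stem cells, here from the colon of C57BL/6 mice (wt). The wt+TNFα organoids came from the same genotype and were kept for 3 weeks with 40 ng/ml of the inflammatory cytokine TNFα. ChIP-seq was performed for H3K4me3, a mark of active or poised promoters, and for H3K27me3, the mark laid down by Polycomb repressive complex 2 (PRC2), and each mark was sequenced as 1 library per condition beside 1 input. The study used these libraries to ask which promoters change their marks under TNFα. Because every condition and mark had 1 library, differences between the conditions could not be set against replicate error, and none was tested.

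In intestinal crypts, Notch signalling keeps progenitors on the absorptive path by repressing Atoh1, and cells that escape it express Atoh1 and become secretory. Gfi1 and Spdef act downstream of Atoh1, Spdef drives goblet cell maturation, and the mature cell fills its stores with mucin and with accessory proteins such as Tff3, Fcgbp, Zg16 and Clca1. Promoters with many CpG dinucleotides are the usual sites of both H3K4me3 and PRC2, and a promoter that carries both marks is called bivalent.

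The 4 peak lists differed in size: for H3K4me3, 11552 peaks stood in the wt list and 11894 in the wt+TNFα list, and for H3K27me3 30594 and 60540. H3K27me3 took up 101 Mb of the autosomes without TNFα and 228 Mb with it, so a gain of this mark was more frequent than a loss across the genome. On chromosome X, the same lists took up 0.597 Mb (wt) and 74.7 Mb (wt+TNFα), and H3K4me3 stood at 3 places of chromosome Y in wt against 0 with TNFα. Whether the wt and wt+TNFα cultures came from the same animal, or from animals of the same sex, is not given in the sources used here, whose table of mice names no donor of these cultures. Such a difference between the cultures cannot be told apart from the treatment in any comparison below. None of the 9 genes lies on X or Y. Peak lists carry no read counts. The study's reporting summary lists more reads for the H3K4me3 library and the input of wt+TNFα than for those of wt, and nearly equal reads for the H3K27me3 libraries. The part of this in the H3K4me3 widths and gains below was not tested on reads. The marks fitted the epithelial label: H3K4me3 was found at 10 of 10 epithelial marker promoters in both conditions, Epcam, Cdh1 and Krt8 among them, and at 0 of 5 immune, 0 of 6 stromal and 0 of 4 neuron and muscle marker promoters.

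The promoter sequences of 5 of the 9 genes were found in the RefSeq promoter table (GRCm38.p6, 250 bases before to 50 after a start). Tff3, Zg16, Clca1 and Creb3l1 had no entry. The stretch upstream of the outermost annotated start is shown for 4 genes with different marks, with CpG dinucleotides in capitals. It is given 5′ to 3′ on the strand of the gene: Atoh1 from chr6:64728875-64729124 (plus strand), Agr2 from chr12:35992675-35992906 (plus strand), Spdef from chr17:27728956-27729201 (minus strand) and Fcgbp from chr7:28070986-28071235 (plus strand).
Atoh1: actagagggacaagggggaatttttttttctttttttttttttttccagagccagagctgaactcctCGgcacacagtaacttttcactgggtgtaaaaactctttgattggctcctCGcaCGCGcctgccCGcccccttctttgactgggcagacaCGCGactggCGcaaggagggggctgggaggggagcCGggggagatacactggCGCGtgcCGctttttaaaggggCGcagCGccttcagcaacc
Agr2: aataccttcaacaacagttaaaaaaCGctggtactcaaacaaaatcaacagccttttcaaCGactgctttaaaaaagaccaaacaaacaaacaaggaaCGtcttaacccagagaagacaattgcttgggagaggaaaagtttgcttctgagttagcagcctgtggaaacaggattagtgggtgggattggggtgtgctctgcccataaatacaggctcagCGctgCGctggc
Spdef: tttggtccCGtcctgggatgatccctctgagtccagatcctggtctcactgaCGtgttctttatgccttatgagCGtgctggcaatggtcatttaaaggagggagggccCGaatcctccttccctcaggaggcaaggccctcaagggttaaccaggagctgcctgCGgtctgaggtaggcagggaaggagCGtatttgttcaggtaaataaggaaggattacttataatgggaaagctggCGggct
Fcgbp: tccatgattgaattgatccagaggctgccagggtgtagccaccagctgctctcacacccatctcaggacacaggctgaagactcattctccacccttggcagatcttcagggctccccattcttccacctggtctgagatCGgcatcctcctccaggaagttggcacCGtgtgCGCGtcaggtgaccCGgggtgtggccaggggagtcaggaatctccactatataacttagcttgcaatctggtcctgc

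The Atoh1 stretch held 14 CpG in 250 bases, Spdef 7 in 246, Agr2 5 in 232 and Fcgbp 5 in 250. All 250 Atoh1 bases lay under H3K4me3 in both conditions, whereas H3K27me3 covered all 250 in wt and 0 in wt+TNFα. For Agr2, the wt H3K4me3 peak covered the 13 bases next to the start and the wt+TNFα peak 115. The Spdef and Fcgbp stretches lay under no peak in any list. Over the full 300-base entries, the ratio of observed to expected CpG was 0.840 for Atoh1, 0.641 and 0.412 for the 2 entries of Gfi1, 0.419 for Agr2, 0.329 for Spdef and 0.274 for Fcgbp, against a median of 0.384 over 32851 entries. Among protein-coding genes the median ratio was 0.794 with H3K4me3 alone in wt, 0.753 with both marks, 0.475 with H3K27me3 alone and 0.183 with neither. Thus Atoh1 and the outer Gfi1 entry were the CpG-richest of these, and Agr2 carried H3K4me3 at a ratio below the lower quartile (0.633) of genes with that mark alone. The motif TATAAA, searched on both strands, was in 0 of the 6 entries of these 5 genes and in 13.6% of all entries. The E-box CAGCTG, its own reverse complement, was in the Fcgbp entry and in 16.3% of all, and CAGATG, an E-box of the Atoh1 type, in 0 of the 6 and in 17.2% of all.

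Of the 9 promoters, 3 carried H3K4me3 in wt (Atoh1, Agr2 and Creb3l1), against 50.5% of protein-coding genes, and the same 3 carried it in wt+TNFα, against 51.2%. H3K27me3 was found at 4 promoters in wt (Atoh1, Spdef, Gfi1 and Zg16; 21.7% of protein-coding genes) and at 6 in wt+TNFα, with Fcgbp and Creb3l1 added (29.5%). Both marks were found at Atoh1 alone in wt (5.18% of protein-coding genes) and at Atoh1 and Creb3l1 in wt+TNFα (7.64%). Tff3 and Clca1 carried neither mark in either condition, as did 26.3% of protein-coding genes. With 9 genes these shares move by a large step for each gene. The wt H3K27me3 count was 2 of 9 with 1 start per gene or with peaks of −log10 q of at least 2 alone. It was 7 of 9 with 2000 bp on each side. Fewer cells with a mark and less of it per cell cannot be told apart in these bulk cultures, in which goblet cells are a fraction of the epithelium. Nor do the lists show whether both marks at a promoter stood in the same cells.

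**Figure D1:**
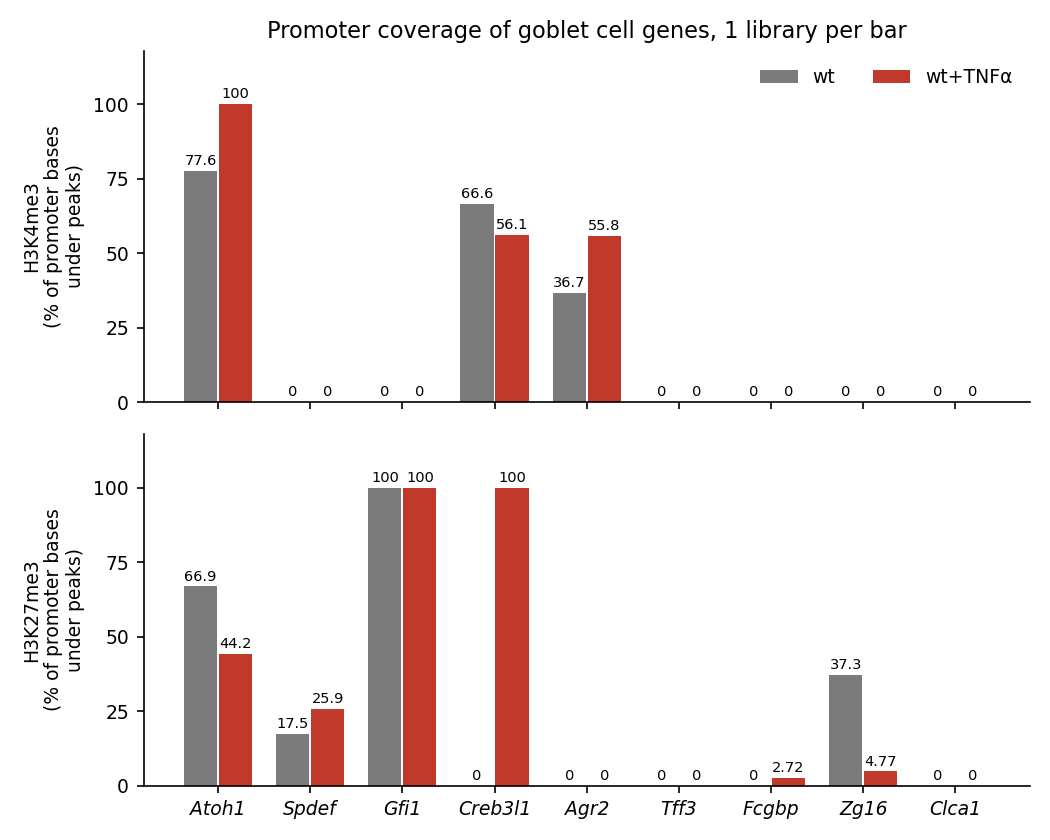
Percent of promoter bases under H3K4me3 peaks (upper panel) and H3K27me3 peaks (lower panel) for the 9 genes, with 1 library per bar and therefore no error bars. H3K4me3 stands at Atoh1, Creb3l1 and Agr2 alone, and Creb3l1 goes from 0 to 100% under H3K27me3.

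Between the conditions, H3K4me3 bases were gained in wt+TNFα at 2 promoters (Atoh1 and Agr2), against 40.9% of protein-coding genes, and lost at 1 (Creb3l1), against 21.1%. Both gains were of at least 10 percentage points of promoter coverage, a size reached by 3.92% of protein-coding genes, and so was the loss, a size reached by 1.08%. The Atoh1 gain was 0 in 2 of 9 alternative definitions of promoters and peaks, and the Agr2 gain was 0 in 1 and negative in 1. H3K27me3 bases were gained at 3 promoters (Spdef, Fcgbp and Creb3l1), against 20.6%, and lost at 3 (Atoh1, Spdef and Zg16), against 5.22%. Coverage by H3K27me3 was at least 10 points higher in wt+TNFα at Creb3l1 alone, against 15.8% of protein-coding genes, and at least 10 points lower at Atoh1 and Zg16, against 2.11%. A promoter can lose H3K27me3 only where wt had it, at 4 of the 9 and at 21.7% of protein-coding genes. Both loss shares, taken over all genes, are therefore low for such promoters. In the 9 alternative definitions the Atoh1 change was negative in all 9, and that of Zg16 was negative in 7, 0 in 1 and positive in 1. On the autosomes, where all 9 genes lie, the shares with gained bases and with at least 10 points more H3K27me3 were 18.2% and 13.3%. Gfi1, Tff3 and Clca1 had the same promoter coverage by each mark in both conditions, and the changes at the other members went in both directions.

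Atoh1, the basic helix-loop-helix factor that commits crypt progenitors to the secretory lineage, lies at chr6:64729125-64731245 on the plus strand and has 1 annotated start. H3K4me3 covered 77.6% of its promoter in wt and 100% in wt+TNFα. The peak was 1552 bp wide in wt (64728389-64729940) and 2895 bp in wt+TNFα (64727734-64730628), so it reached farther on both sides of the start. Its fold enrichment over background lay above 16.6% of the wt list and above 34.5% of the wt+TNFα list, in the lower part of both. H3K27me3 moved the other way at the promoter, from 66.9% in wt to 44.2% in wt+TNFα. The H3K27me3 domain spanned 8116 bp in wt and began 338 bp upstream of the start. In wt+TNFα it spanned 6353 bp and began 116 bp downstream, so the bases just upstream of the start left the domain. Both domains were among the strongest of their lists, with a fold enrichment above 98.0% of wt and 97.8% of wt+TNFα peaks. Of the H3K4me3 peak, 74.4% lay under H3K27me3 in wt and 47.9% in wt+TNFα. When each list was limited to peaks above its median −log10 q, the Atoh1 H3K4me3 peak dropped out in both conditions. With the upstream 1000 bp alone, the Atoh1 promoter carried no H3K27me3 in wt+TNFα.

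Across the genome, 908 protein-coding genes (4.14%) carried both marks in both conditions, as Atoh1 did. In 26 of them (0.119% of protein-coding genes), Atoh1 included, H3K4me3 coverage was at least 10 points higher and H3K27me3 coverage at least 10 points lower in wt+TNFα. The lower H3K27me3 coverage at Atoh1 was not limited to the promoter. In the 50 kb upstream, coverage was 18.0% in wt and 5.83% in wt+TNFα, and in the 50 kb downstream 13.7% and 8.70%. No protein-coding gene lay within 1 point of Atoh1 in all 4 lists. The 3 nearest, Wasf1, Maf and A930033H14Rik, differed from it by 12.4, 20.4 and 27.9 points in the least similar list.

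Spdef, the ETS factor of goblet and Paneth cell maturation, lies at chr17:27714352-27728955 on the minus strand and has 6 annotated starts. No H3K4me3 peak was found at it in either condition. The H3K27me3 coverage of the Spdef promoters was 17.5% (wt) and 25.9% (wt+TNFα), but at different places. The wt peak (1266 bp) lay 11414 to 12679 bp into the gene, near starts of retained-intron transcripts, and had a −log10 q of 0.405. In wt+TNFα, a peak of 732 bp lay 10038 to 10769 bp into the gene, and another of 485 bp lay 461 to 945 bp upstream of the outermost start with a −log10 q of 0.850. All 3 were weak, with a fold enrichment above 4.39%, 20.7% and 9.39% of their lists. The coding starts of Spdef were thus free of H3K27me3 in wt and had a weak peak upstream of them in wt+TNFα. With equal numbers of peaks or equal covered length in both lists, the wt+TNFα promoter peaks dropped out and the change turned to -17.5 points. Over the gene body as a whole, H3K27me3 coverage was 21.3% (wt) and 36.0% (wt+TNFα), with an intronic wt+TNFα peak of 2293 bp above 79.7% of its list. Myocd, Prss44 and Khdrbs2 had the most similar coverage in the 4 lists, within 0.339, 0.893 and 0.997 points.

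Gfi1, a zinc finger repressor required for secretory cell differentiation, lies at chr5:107716657-107726036 on the minus strand and has 3 starts. Its promoters carried no H3K4me3 and were fully under H3K27me3 in both conditions (100%). The domain was 24120 bp wide in wt (107708492-107732611) and 25754 bp in wt+TNFα (107707475-107733228), and it took in the whole gene with several kilobases on each side. Its fold enrichment was above 99.4% of the wt list and 99.8% of the wt+TNFα list, the highest rank among the 9 genes. The full coverage without H3K4me3 was shared with 1038 protein-coding genes (4.73%). Of the 3 fate factors, then, Atoh1 had peaks of both marks, Gfi1 lay in a broad H3K27me3 domain, and Spdef had weak H3K27me3 peaks at different promoter positions in the conditions.

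Creb3l1, an endoplasmic reticulum-anchored transcription factor that is released by proteolysis and activates genes of the secretory pathway, lies at chr2:91982328-92024502 on the minus strand and has 1 start. Its promoter showed the largest change of the 9. H3K27me3 was absent from it in wt (0%) and spanned all of it in wt+TNFα (100%). The wt+TNFα domain (92009150-92026951) was 17802 bp wide, from 2449 bp upstream of the start to 15352 bp downstream of it. It had a −log10 q of 8.72 and a fold enrichment above 97.6% of its list, so it was among the stronger domains of that list. H3K4me3 was found in both conditions but was narrower and lower in rank in wt+TNFα, at 2561 bp in wt (92022274-92024834) and 1123 bp in wt+TNFα (92023530-92024652), which covered 66.6% and 56.1% of the promoter. Its fold enrichment lay above 83.8% of peaks in wt and 12.4% in wt+TNFα. The wt+TNFα H3K4me3 peak was wholly (100%) inside the H3K27me3 domain. This peak dropped out when each list was limited to its stronger peaks, by −log10 q over the median or by equal covered length, so that the H3K4me3 change became -66.6 points and the promoter no longer carried both marks. A further H3K4me3 peak of 704 bp, in an intron 15662 to 16365 bp into the gene, was found in wt+TNFα alone and lay outside the H3K27me3 peaks.

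**Figure D2:**
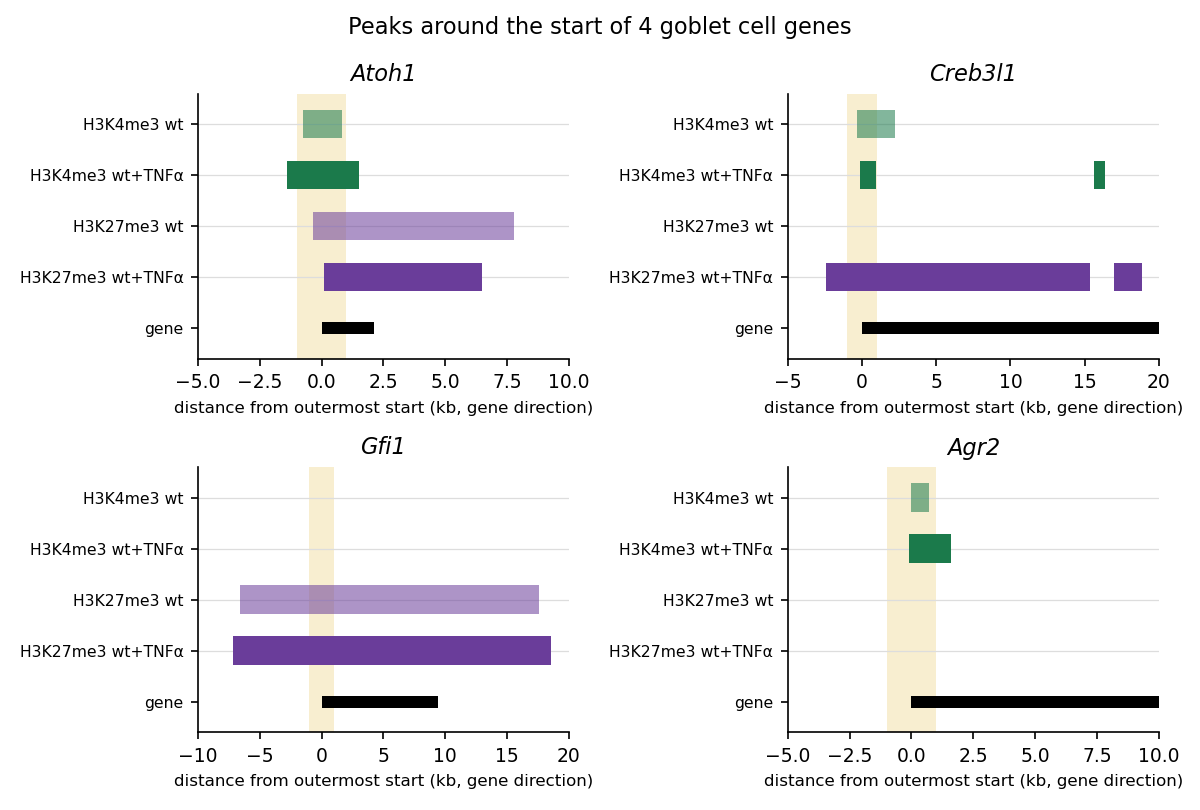
Peaks of each list around the outermost start of Atoh1, Creb3l1, Gfi1 and Agr2, as distance in kb in the direction of the gene; green bars are H3K4me3, purple bars H3K27me3, paler bars wt, black bars the gene and the shaded band 1000 bp on each side of the outermost start. The H3K27me3 edge of Atoh1 moves from 338 bp upstream to 116 bp downstream, and a domain of 17802 bp stands over Creb3l1 in wt+TNFα alone.

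The H3K27me3 gain at Creb3l1 extended beyond the promoter. Over the gene body, coverage was 0% in wt and 66.7% in wt+TNFα, while the median over all protein-coding gene bodies was 0% in both. Any H3K27me3 was found in 25.7% of protein-coding gene bodies in wt and in 33.8% in wt+TNFα. The 50 kb upstream went from 13.0% to 64.4% and the 50 kb downstream from 15.5% to 29.6%. The promoters of the neighbouring genes were less affected. Among 6 protein-coding genes within 150 kb, the promoter coverage of Dgkz was 12.7% in both conditions, that of Phf21a 1.45% and 1.44%, and that of Chrm4 29.5% and 34.1%. Ambra1, Mdk and Gm9821 carried no H3K27me3 in either condition. The gain thus lay over Creb3l1 and on both sides of it. On the side of Dgkz, a domain that stood in wt at 7734 bp measured 14819 bp in wt+TNFα.

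The combination of marks at Creb3l1, H3K4me3 in both conditions and H3K27me3 in wt+TNFα alone, was found at 577 protein-coding genes (2.63%), 325 on the autosomes and 252 on chromosome X. In 125 of these (0.570%) the wt+TNFα H3K27me3 covered the whole promoter, and 115 of the 125 were on chromosome X and 10, Creb3l1 included, on the autosomes. The 3 genes nearest to Creb3l1 in the 4 lists, Amer1, Timm8a1 and Gpc4, at 2.35, 4.80 and 4.85 points, were on chromosome X. Without the condition of full coverage, but with an H3K4me3 peak at least 1.5 times as wide in wt, 16 protein-coding genes (0.0730%) had the pattern, of which 15 were autosomal.

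Agr2, a protein disulphide isomerase of the endoplasmic reticulum that is needed for mucin folding, lies at chr12:35992907-36004087 on the plus strand and has 1 start position. It carried H3K4me3 and no H3K27me3 in either condition. The H3K4me3 peak measured 735 bp in wt (35992894-35993628) and 1724 bp in wt+TNFα (35992792-35994515), and it covered 36.7% and 55.8% of the promoter. Most of the added width was downstream, in the first intron: the far edge moved from 721 to 1608 bp into the gene. The fold enrichment lay above 8.98% of the wt list and 15.8% of the wt+TNFα list, so the peak was weak in both. The wt+TNFα peak dropped out when both H3K4me3 lists were held to equal covered length, which turned the change to -36.7 points. H3K27me3 was also missing from its gene body and upstream 50 kb in both lists, and covered 0.738% of the downstream 50 kb in wt+TNFα. The class of Agr2, H3K4me3 alone in both conditions, held 9286 protein-coding genes (42.4%). Zfp251, Selenom and Dnajc14 were nearest to Agr2, at 1.06, 2.06 and 2.43 points.

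H3K4me3 width differed between the conditions at all 3 genes with this mark. Over 10903 protein-coding genes with a peak in both conditions, the median ratio of the width in wt+TNFα to that in wt was 1.07. A peak at least 1.5 times as wide in wt+TNFα was found at 2 of the 3 (Atoh1 and Agr2), against 4.12% of these genes, and one at least 1.5 times as wide in wt at 1 of the 3 (Creb3l1), against 0.954%. The ratio was 1.87 for Atoh1, above 98.3% of genes, and 2.35 for Agr2, above 99.4%. For Creb3l1 it was 0.439, at rank 18 of 10903 from the narrowest end. The rank of the fold enrichment moved in the same directions. Its percentile was higher by 17.9 points in wt+TNFα for Atoh1 and by 6.85 for Agr2, with a median change of 1.10 over all genes. These changes were above those of 85.0% of genes for Atoh1 and of 65.5% for Agr2, so the Agr2 change was not unusual. For Creb3l1 it was 71.5 points lower, the change of rank 2 of 10903 from the largest fall.

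**Figure D3:**
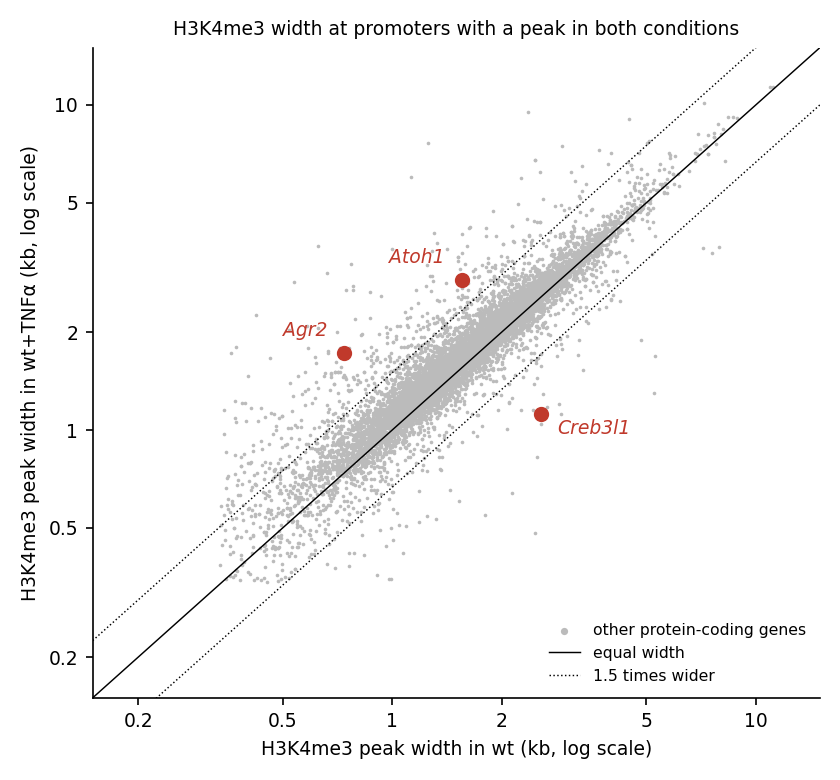
Width of the H3K4me3 peak with the most promoter bases in wt (x axis) and wt+TNFα (y axis), in kb on log scales. Shown are 10903 protein-coding genes with a peak in both conditions. The solid line is equal width and the dotted lines a 1.5-fold difference. Atoh1 and Agr2 lie above the upper dotted line and Creb3l1 below the lower one.

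The 4 secreted products carried no H3K4me3 peak at their promoters, in the gene or within 5 kb of it in either condition. Zg16, a lectin-like mucus protein that binds Gram-positive bacteria, is annotated at chr7:127050156-127087328 on the minus strand, with coding starts 34653 and 35351 bp downstream of the outermost start. The H3K27me3 coverage of the Zg16 promoters was 37.3% (wt) and 4.77% (wt+TNFα). The wt peak was 9265 bp wide (127051909-127061173) and took in both inner coding starts. The wt+TNFα peak was 7753 bp wide (127053450-127061202), with an upstream edge 26126 bp from the outermost start against 26155 bp in wt, and ended 33878 bp from it, before both inner starts. So most of this domain was in both lists, and its edge over the inner starts in wt alone. The wt peak had a −log10 q of 1.55 and the wt+TNFα peak 5.57, above 82.4% and 96.0% of their lists. With peaks of −log10 q of at least 2 alone the wt peak dropped out and the change turned to 4.77 points, and with the outermost start alone it was 0.

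Fcgbp, the IgG Fc-binding mucus protein, lies at chr7:28071236-28120862 on the plus strand. The H3K27me3 coverage of the Fcgbp promoters was 0% (wt) and 2.72% (wt+TNFα), which came to 221 bp of a 1502 bp peak near a start of a non-coding transcript 44378 bp into the gene. Its coding start had no peak of either mark. H3K27me3 covered 11.5% of the gene body in wt and 6.34% in wt+TNFα, whereas the 50 kb downstream of the gene went from 12.4% to 65.3%. The change beside Fcgbp was therefore outside its promoters.

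Tff3, the trefoil peptide of goblet cells, lies at chr17:31125306-31129646 on the minus strand, and Clca1, a secreted metalloprotease that processes mucus, at chr3:145003817-145032776 on the minus strand. The promoters of both were free of peaks in all 4 lists. Around Tff3, H3K27me3 was nearby in both conditions: the closest edge lay 1325 bp into the gene in wt and 1295 bp in wt+TNFα, and 25.6% and 35.5% of the gene body was covered. The 50 kb downstream of Tff3 went from 15.8% to 82.0%, and the interval from Tff3 to Tff1 from 45.5% to 51.3%. Around Clca1, a peak 1511 to 2808 bp into the gene was found in wt, with a −log10 q of 0.457, and none in wt+TNFα. The Clca gene cluster had 4.98% H3K27me3 in wt and 2.38% in wt+TNFα. The 50 kb upstream of Clca1 had 16.4% and 10.4%, and the 50 kb downstream 0% in both. The promoters of both products thus carried neither mark, with H3K27me3 in the surrounding sequence, and H3K27me3 coverage around them was higher in wt+TNFα for Tff3 and lower for Clca1.

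The lists of related genes gave a wider view of the programme. Of 15 other goblet cell products, H3K4me3 was found at 3 in wt (Lrrc26, Pla2g10 and Sytl2) and 4 in wt+TNFα (20% and 26.7%, against 50.5% and 51.2% of protein-coding genes). H3K27me3 was found at 4 and 6 (26.7% and 40.0%), near the 21.7% and 29.5% of protein-coding genes. Guca2a, the precursor of the hormone guanylin, went from 0% to 49.1% of its promoter under H3K4me3, and coverage of Pla2g10, a secreted phospholipase, was 73.3% and 57.5%. H3K27me3 went from 0% to 100% at the trefoil gene Tff2 and from 0% to 77.5% at Ang4, an antimicrobial ribonuclease. It also went from 50% to 77.1% at Capn9, a gut calpain. These were the 3 of the 15 with H3K27me3 coverage at least 10 points higher in wt+TNFα, a share near the 15.8% of protein-coding genes. Coverage at least 10 points lower was found at 0 of the 15, against 2.11%. Retnlb, Spink4, Rep15, Tpsg1 and Klk1 carried neither mark, like Tff3 and Clca1. As for the 9 genes (3 of 9 in each condition), a smaller share of these promoters carried H3K4me3 than of protein-coding genes. The counts are small and the difference was not tested.

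The machinery genes differed from the products. Of 15 secretory pathway genes, among them Ern2, Fkbp11 and Pdia5, 15 carried H3K4me3 in wt and 14 in wt+TNFα, against 50.5% and 51.2% of protein-coding genes. The gene without a peak in wt+TNFα was Creb3l4, a paralog of Creb3l1, which went from 25.5% to 0%. Kdelr3, a receptor that retrieves endoplasmic reticulum proteins, was the sole gene of the list with H3K27me3 (against 21.7% and 29.5% of protein-coding genes), at 100% in both conditions, and its H3K4me3 coverage was 44.4% and 32.6%. The median H3K4me3 coverage of the list was 41.7% in wt and 45.8% in wt+TNFα, against 5.32% and 7.57% over protein-coding genes. H3K4me3 coverage was at least 10 points lower in wt+TNFα at 2 of the 15 (Creb3l4 and Kdelr3), against 1.08% of protein-coding genes. Bases were lost at 7, against 21.1%, and gained at 12, against 40.9%. These shares include the genes without H3K4me3 in either condition, which can neither gain nor lose bases. All 15 of the list had a peak in wt, so the counts do not show an excess over other genes with the mark.

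Of 15 genes of Notch signalling and secretory fate, 13 carried H3K4me3 in each condition (86.7%, against 50.5% and 51.2% of protein-coding genes). H3K27me3 was at 3 in each (20%), no more than the 21.7% and 29.5% of protein-coding genes. H3K27me3 was found at the Notch ligand Dll1 in wt alone (8.59%) and at the ligand Dll4 in wt+TNFα alone (24.2%), with H3K4me3 at both in each condition. Hes5 and Gfi1b carried H3K27me3 without H3K4me3 in both. H3K4me3 coverage differed by at least 10 points at 0 of the 15, where 3.92% of protein-coding genes were that much higher and 1.08% that much lower.

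**Figure D4:**
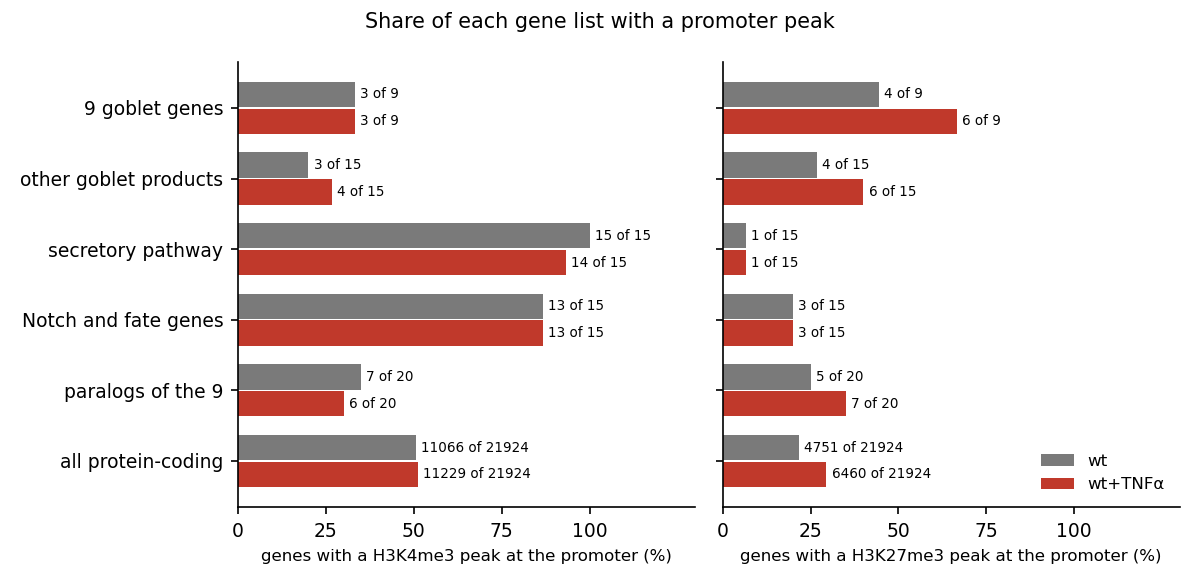
Percent of genes with an H3K4me3 peak (left) or an H3K27me3 peak (right) at the promoter in each gene list and over all protein-coding genes, with the number of genes at each bar. In wt, H3K4me3 is at 3 of 9 goblet genes, 3 of 15 other goblet products and 15 of 15 secretory pathway genes, against 50.5% of protein-coding genes. The counts are small and no difference was tested.

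Among 20 paralogs of the 9 genes, 7 carried H3K4me3 in wt and 6 in wt+TNFα (35.0% and 30.0%), against 50.5% and 51.2% of protein-coding genes, and 5 and 7 carried H3K27me3 (25% and 35.0%), near the 21.7% and 29.5% of protein-coding genes. Atoh8 had peaks of both marks in both conditions, like Atoh1, with H3K4me3 at 34.0% and 44.8% and H3K27me3 at 100% in each. Creb3l3 went from 0% to 46.1% under H3K27me3 without H3K4me3, whereas Creb3 and Creb3l2 carried H3K4me3 alone, at 44.4% and 47.5% and at 40.0% and 43.5%. Within this family, H3K27me3 was found in wt+TNFα alone at Creb3l1 and Creb3l3. Of protein-coding genes, 2.63% had the class of Creb3l1, and 6.16% had H3K27me3 in wt+TNFα alone without H3K4me3. With so few genes, no family trait can be read from this. The ETS paralog Elf5 went from 15.8% to 68.9% under H3K27me3, and Elf3 had H3K4me3 at 87.7% and 89.3%. Agr3 and the 6 other Clca genes carried neither mark.

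Directions were compared under 9 alternative definitions of promoters and peaks. The H3K27me3 change at Creb3l1 was 100 points in all 9, and its H3K4me3 change was negative in all 9, between -66.6 and -10.5 points. The H3K27me3 change at Atoh1 lay between -45.4 and -11.3 points. The H3K4me3 change of Atoh1 was positive in 7 and 0 in 2. That of Agr2 was positive in 7, 0 in 1 and negative in 1, and the H3K27me3 changes of Spdef and Zg16 took both signs. The H3K27me3 change of Fcgbp was positive in 3 and 0 in 6.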

How the data were processed

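H3K4me3 and H3K27me3 ChIP-seq of wt and wt+TNFα organoids was analysed from the 4 deposited peak lists; reads and inputs were not analysed here. Per the labels and the methods, alignment by the authors was to GRCm38/mm10 with BWA 2.2, followed by duplicate removal with SAMtools 1.11, a blacklist filter and peak calling over the input with MACS2 (2.1.0 in the submitters' processing notes), separately for each library, as narrow H3K4me3 and broad H3K27me3 peaks. The deposited fold enrichment is a ratio of ChIP signal to local background, and significance was deposited as the −log10 of a p-value and of a q-value. The deposited score column and summit offset rank and place peaks. The names of 3 of the 4 lists mention a spike-in and that of wt+TNFα H3K27me3 does not, and the lowest −log10 q of the H3K27me3 lists was 0.302 in wt and 0.747 in wt+TNFα. The wt+TNFα H3K27me3 list may therefore have been made differently from the wt list. For H3K27me3 the study's reporting summary states a q-value threshold that equals a −log10 q of 2, so both lists held weaker peaks than that. Counts with −log10 q of at least 2 alone are given below. How a spike-in was used is not given in the sources used here, so fold enrichments were ranked within a list only. Read totals stand in the study's reporting summary, higher for wt+TNFα H3K4me3 and input than for wt. More reads can widen and add called peaks, and the lists were not scaled for this here; alternatives with equal numbers of peaks and equal covered length were tried.

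Peaks were converted to 1-based coordinates, and the bases of each promoter under a peak were counted in Python 3.11.15 with numpy 2.4.6 (minimum overlap 1 bp); base subtraction gave the same result as bedtools 2.31.1. A change of 10 percentage points of coverage, or a 1.5-fold difference in width, was the threshold for a call. The counting was tested on simulated peaks, where 300 of 300 planted changes were recovered. All protein-coding genes were measured the same way as background. All 9 members, and of the other lists the genes with a peak in 1 condition alone plus at most 4 with the largest change, were named by rule. Other genes of the lists, where they make up a count of few genes, were named after their values were seen. The nearest genes were named where fewer than 20 lay within 1 point. The members and lists were chosen with earlier results of these data known.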

Additional observations from a re-analysis of the deposited data

How the results depend on the processing

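No paired analysis was possible because each condition and mark had 1 library. Of 154 member counts under 12 alternatives, 116 stayed within 1.5 times of the reported count. With 500 bp on each side, H3K4me3 was gained at 1 promoter, by at least 10 points at 1, and H3K27me3 was at least 10 points higher at 2. With 2000 bp, wt H3K27me3 was at 7 promoters, H3K27me3 bases were lost at 5 and neither mark was at 0. With the upstream 1000 bp alone, H3K27me3 was at least 10 points higher at 2 and both marks were at 1 in wt+TNFα. With 1 start per gene, wt H3K27me3 was at 2, lost at 1, at least 10 points higher at 2 and lower at 1, and neither mark at 4. With coding starts alone it was at least 10 points higher at 2. With −log10 q of at least 2, wt H3K27me3 was at 2, lost at 1, at least 10 points lower at 1, and neither mark at 4. The Zg16 change in H3K27me3 was then reversed, to 4.77 points. Above the median q of each list, H3K4me3 was at 1 promoter in wt and 0 in wt+TNFα, gained at 0 and at least 10 points higher at 0. Both marks were then at 0 in either condition and neither mark at 4. With equal covered length on the autosomes, H3K4me3 was at 1 promoter in wt+TNFα, gained at 1, lost at 2, at least 10 points higher at 1 and lower at 2. H3K27me3 was then gained at 1, both marks were at 1 in wt+TNFα, and the Agr2 change in H3K4me3 was reversed, to -36.7 points, because its wt+TNFα peak dropped out. With whole peaks subtracted, H3K4me3 was gained at 0 and lost at 0, and H3K27me3 lost at 0. With peaks extended by 1000 bp, H3K4me3 was gained at 0 and lost at 0, and H3K27me3 lost at 1. Over all gene types, 11 background shares moved by over 1.5 times, as H3K4me3 in wt at 24.3%. On the autosomes, a background chosen after seeing the data, 0 did. The H3K27me3 promoter peaks at Spdef and the H3K4me3 promoter peaks at Atoh1, at Agr2 and, in wt+TNFα, at Creb3l1 ranked in the lower part of their lists. Where no cause is given, it was not tested.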
